A study of Rattus norvegicus with 12 samples.

Results

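The matrix metalloproteinases (Mmp genes), their tissue inhibitors (Timp genes) and the related Adam and Adamts proteases were followed in the lungs of rats with monocrotaline-induced pulmonary hypertension. Members were taken by symbol alone, as every gene named Mmp, Timp, Adam or Adamts with a number directly after the family name, and 61 of the 19687 genes listed in at least 1 of the 3 deposited tables met this. They comprised 22 Mmp, 4 Timp, 18 Adam and 17 Adamts genes. The study compared ligands of the angiotensin II type 1 receptor in male Sprague-Dawley rats, and all animals, vehicle included, had received monocrotaline (MCT, 60 mg/kg, once), a plant toxin that injures the pulmonary vasculature. The 4 groups of 3 animals, all 9 weeks old, were Vehicle, AngII (the native agonist angiotensin II, 1 mg/kg/day), TRV023 (an agonist biased towards β-arrestin over G protein signalling, 10 µg/kg/min) and Losartan (a receptor antagonist, 10 mg/kg/day), each delivered by osmotic minipump. Every library was made from a small piece of the lung of 1 animal, each drug was given at 1 dose, no MCT-free lung was analysed here, and libraries carry the labels' names below (Veh, Ang2, Trv or Los with the number of the animal).

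The Mmp enzymes are zinc-dependent endopeptidases that, as a family, cleave collagens, elastin, laminins and many other extracellular proteins. The Timp proteins bind their active sites and block them, and Timp3 stays bound to the matrix, where it also inhibits several Adam and Adamts enzymes. Adam proteins are mostly membrane-bound and several of them release the outer parts of growth factors, cytokine receptors and adhesion molecules from the cell surface, whereas Adamts proteins are secreted and cleave proteoglycans, procollagens or von Willebrand factor. In pulmonary hypertension these enzymes and inhibitors are studied for their part in remodelling of the vessel wall, and Mmp2 and Timp1 were among the transcripts the study measured in cultured pulmonary artery smooth muscle cells.

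A row of 9 Mmp genes lies on chromosome 8 between positions 5527980 and 5903099 as the tables list them (build not named), a span of 375120 bases with no other listed gene inside. Their order is Mmp13, Mmp12, Mmp1b, Mmp3, Mmp10, Mmp8, Mmp27, Mmp20 and Mmp7. The stretches before 6 of these start sites are shown because neighbours with the same motif there were read at very different levels in these lungs. The following are the 100 bases directly before the RefSeq start site (GRCr8, all on the plus strand), with the heptamer TGAGTCA or its reverse complement TGACTCA, a binding motif of AP-1 (Fos and Jun proteins), in capitals.
Mmp13, chr8:12782729-12782828: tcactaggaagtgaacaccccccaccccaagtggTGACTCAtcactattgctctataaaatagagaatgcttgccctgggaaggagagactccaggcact
Mmp12, chr8:12866552-12866651: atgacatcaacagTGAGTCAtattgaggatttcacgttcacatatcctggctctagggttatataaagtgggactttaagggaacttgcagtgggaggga
Mmp3, chr8:12925181-12925280: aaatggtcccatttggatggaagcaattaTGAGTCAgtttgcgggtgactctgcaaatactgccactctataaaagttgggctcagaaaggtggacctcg
Mmp10, chr8:12974607-12974706: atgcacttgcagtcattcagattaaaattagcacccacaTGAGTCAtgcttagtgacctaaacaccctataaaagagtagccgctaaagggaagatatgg
Mmp8, chr8:13008790-13008889: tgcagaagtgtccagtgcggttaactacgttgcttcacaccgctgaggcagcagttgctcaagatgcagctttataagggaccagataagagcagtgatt
Mmp7, chr8:13132943-13133042: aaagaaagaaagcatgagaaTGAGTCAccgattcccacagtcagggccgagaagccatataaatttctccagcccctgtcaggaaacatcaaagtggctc

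RefSeq promoter windows were matched by symbol for 42 of the 61 members, all 9 genes of the chromosome 8 row among them. Within the 250 bases before the start, either form of the heptamer was found in 5 of these 9 genes, in 1 of the 33 other members (Adam19) and in 4.05% of the 33469 windows of all genes. Its first base lay 66 bases before the start in Mmp13, 87 in Mmp12, 71 in Mmp3, 61 in Mmp10 and 80 in Mmp7. A TATAAA hexamer, searched on the plus strand of the gene and not overlapping the heptamer, occurred in 5 of the 6 stretches shown and in 3.86% of all windows over the same 100 bases. Mmp8 held neither. The matches describe letters in these windows and were not tested for binding.

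Levels along the row ranged widely, among genes with the heptamer as well. Mmp12, the macrophage elastase, averaged 23.3 FPKM (a level corrected for gene length and library size) over the 12 libraries. Mmp8, the collagenase of neutrophil granules, which lacks the heptamer in this window, averaged 4.33 FPKM. The stromelysin Mmp3 averaged 0.367 FPKM, the epithelial matrilysin Mmp7 0.309, the second stromelysin Mmp10 0.117 and the collagenase Mmp13 0.0795. Mmp1b, Mmp20 and Mmp27 were each listed in only 1 of the 3 tables, with at most 0.0473 FPKM in any library. A gene missing from a table had no read in 2 of the 3 libraries of that drug, and its value in the third is not known.

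**Figure D1:**
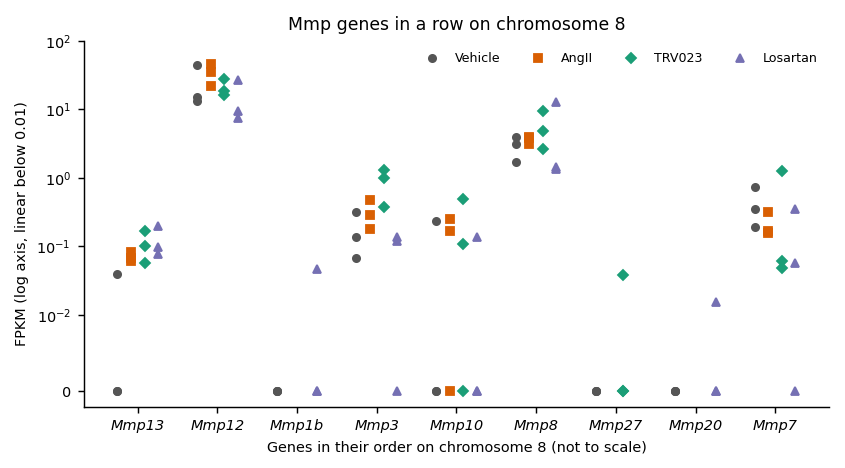
FPKM of the 9 Mmp genes in their order on chromosome 8, on a log axis that is linear below 0.01, with 1 point per library and 3 libraries per group. Mmp12 and Mmp8 stand above 1 FPKM in every library, whereas no other gene exceeds 1.31 FPKM, and Mmp1b, Mmp27 and Mmp20 have points only for vehicle and the 1 drug whose table lists them.

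Across all families, 53 members were listed in all 3 tables, 2 in 2 and 6 in 1. In vehicle lungs 21 members had a mean of 10 FPKM or more, 17 had between 1 and 10, and 23 were below 1. The low group held 10 of the 18 Adam genes, among them Adam2, Adam18 and Adam30, which are known for sperm and testis functions. A small number of genes supplied most of the transcript: Timp3, Timp2, Timp1, Mmp2 and Mmp14 together made up between 64.2% (Los_965) and 75.6% (Trv_917) of the summed FPKM of all members.

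**Figure D2:**
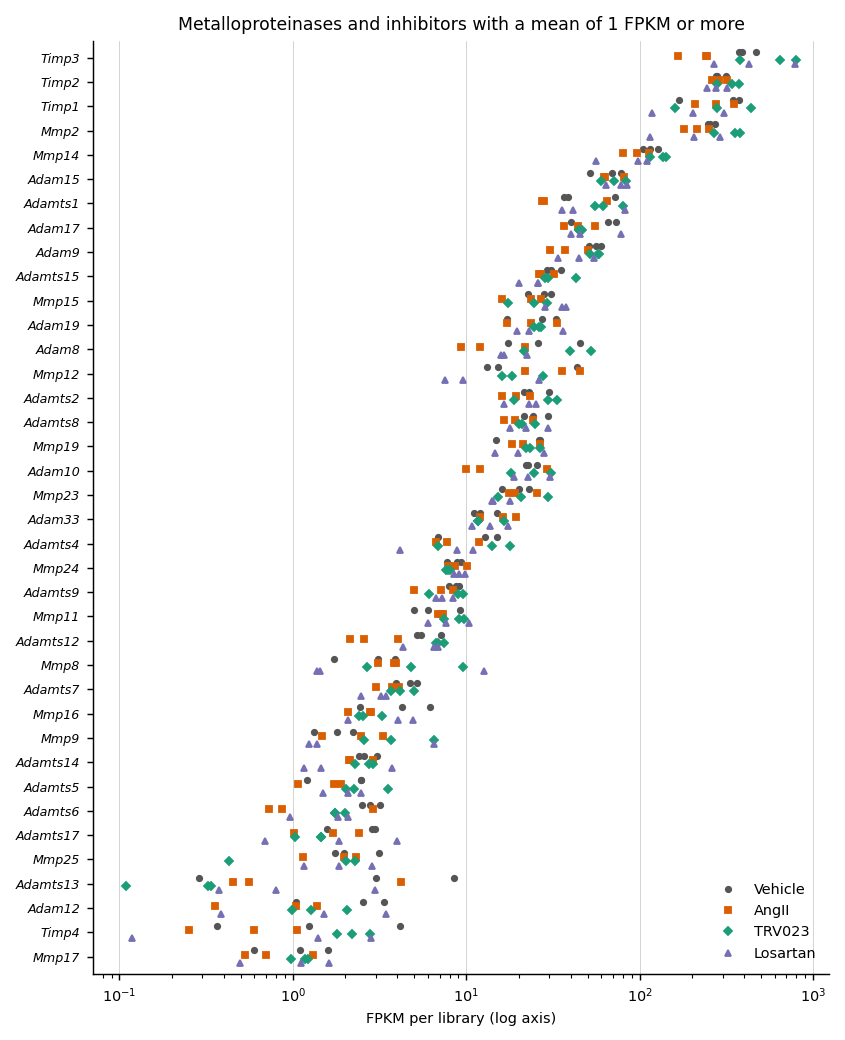
FPKM in each of the 12 libraries, on a log axis, for the 38 members with a mean of 1 FPKM or more, ordered by that mean and with 1 symbol per group. The 4 highest genes are 3 inhibitors and Mmp2, the AngII squares of Timp3 and Adamts12 lie to the left of all other points, and Adamts13, Timp4 and Mmp8 spread widely within groups.

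Timp3 was the member with the highest mean level in vehicle lungs, at 409 ± 50.4 FPKM (SD, n = 3). Timp1 followed at 296 ± 111 FPKM, Timp2 at 290 ± 22.7, Mmp2 (gelatinase A, which cleaves denatured collagen and collagen IV) at 258 ± 13.2 and Mmp14 (the membrane-type protease that activates pro-Mmp2) at 116 ± 11.7 FPKM. The vehicle libraries of Timp1 overlapped those of Timp3, Timp2 and Mmp2, so the order of these neighbours is not resolved, whereas Mmp14 lay below all of them. The fourth inhibitor, Timp4, was sparse at 1.92 ± 1.99 FPKM. Next in the order of means over all 12 libraries stood Adam15, Adamts1, Adam17, Adam9, Adamts15, Mmp15, Adam19, Adam8, Mmp12, Adamts2, Adamts8, Mmp19, Adam10, Mmp23 and Adam33, from 70.4 FPKM for Adam15 to 14.0 FPKM for Adam33.

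Members varied more between animals of the same group than most genes did. The median within-group SD on the log2(CPM + 1) scale was 0.37 for the 47 members tested and 0.29 over all 15662 genes tested, where CPM is the count scaled to the library total. Adamts13 (the protease of von Willebrand factor) had an SD of 1.39, Mmp8 0.90, Timp4 0.86, Mmp9 0.74 and Mmp12 0.73, against 0.17 for Timp2 and 0.12 for Mmp24. Adamts13 shows the range, with 0.289, 3.02 and 8.498 FPKM in the 3 vehicle lungs.

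Library totals ranged from 16106337 to 20096877 counts, and the lung markers Sftpc (alveolar type 2 cells) and Scgb1a1 (club cells) reached at least 5224 and 6588 FPKM in all 12. Los_965 stood apart, with the lowest summed fibroblast markers (5433 CPM against 5870 to 9747 in the other 11 libraries), the lowest macrophage markers and the lowest summed FPKM of all members (1243 against 1520 to 2557). Results of the losartan group are therefore also given without this library where it moved them by over 1.5 times. Veh_963 also differed in its markers, and every comparison with Vehicle uses it. Its smooth muscle markers summed to 5996 CPM against 1501 to 2816 in the other 11 libraries. Its airway ciliated and club cell markers summed to 14393 CPM and its neutrophil markers to 481. The other Vehicle lungs had 7312 and 6072 CPM for the airway markers and 2440 and 1425 for the neutrophil markers. On the neutrophil list Lcn2 ranged from 362 to 2639 FPKM over the 12 libraries, and the next gene, S100a9, from 53.9 to 443. The unweighted neutrophil sum therefore leans on Lcn2. On the scale of library totals the median gene lay 0.16 log2 units below vehicle in AngII lungs, and FPKM carries this shift, whereas the fold changes below were computed after TMM scaling, with an all-gene median of -0.025. Timp1, Timp3 and Timp4 each lie within a synapsin gene on the opposite strand (Syn1, Syn3 and Syn2), and the strand setting of the counting is not given. Those genes reached at most 1.37, 0.509 and 0.253 FPKM.

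No member passed an adjusted p of 0.05 in any of the 6 comparisons between groups in edgeR's quasi-likelihood test with Benjamini-Hochberg adjustment over all genes. The same test called 2 of 15059 genes (0.0133%) for AngII against Vehicle, 1 of 15193 (0.00658%) for TRV023 and 0 of 15156 (0%) for Losartan. Between drugs it called 0 of 15662 genes in each of the 3 comparisons (0%). Unadjusted p values under 0.05 are therefore used below only to describe which members differed most, beside the share of all genes that reached the same level. Of the 61 members, 44 had enough counts to be tested in all 3 comparisons with vehicle, 2 were tested in some of them and 15 in none.

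AngII against Vehicle asked what the balanced agonist did in MCT lungs. At unadjusted p under 0.05, 3 of 44 members were lower in AngII lungs and 0 were higher, where 5.39% of all genes were lower and 6.54% higher. The 3 were Timp3, Adamts12 and Adam8. The median log2 fold change over the members tested was -0.21, against -0.025 over all genes, and 30 of the 44 lay below 0. By family, 15 of 15 Adamts, 7 of 12 Adam, 6 of 13 Mmp and 2 of 4 Timp genes lay below 0, beside 52.6% of all genes. Without Veh_963 or without Ang2_933, 12 of 15 Adamts genes lay below 0. Against the same Vehicle lungs, 12 of 15 also lay below 0 for Losartan, beside 48.7% of all genes, and 8 of 15 for TRV023. Adamts19 had 12, 22 and 31 counts in Vehicle lungs, 18, 7 and 5 in AngII lungs and 18, 4 and 1 in Losartan lungs. It passed the filter on low counts mainly through Vehicle, so it could hardly be counted other than below 0. The same holds for Adam4 in AngII (20, 12 and 12 counts in Vehicle lungs, 14, 3 and 6 in AngII lungs). With at least 10 counts in every library, 14 of 14 Adamts genes lay below 0 for AngII and 11 of 14 for Losartan. Low Adamts values against Vehicle were thus not particular to AngII. The direct contrasts differed. For AngII against Losartan 9 of 15 lay below 0, beside 51.9% of all genes, and 5 (without Los_964) to 11 (without Los_965) with 1 library left out. For AngII against TRV023 12 of 15 lay below 0, beside 51.0% of all genes, and 9 to 11 with 1 library left out.

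Timp3 (ENSRNOG00000004303, chromosome 7, 23694454 to 23744372, minus strand) was read at 391, 371 and 467 FPKM in Vehicle lungs and at 244, 167 and 241 FPKM in AngII lungs. TRV023 lungs had 645, 794 and 378 FPKM, and Losartan lungs 425, 780 and 266 FPKM. All 3 AngII libraries were lower than each of the 9 others. The fold change of AngII over Vehicle was 0.58 (log2 -0.78, SE 0.17, 95% interval -1.18 to -0.39), with an adjusted p of 0.295 in edgeR. DESeq2, run as an alternative, gave an adjusted p of 0.00376 for the same counts.

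Adamts12 (ENSRNOG00000018865, chromosome 2, 83352798 to 83650251, minus strand), which encodes a secreted protease that degrades cartilage oligomeric matrix protein, gave a similar picture at a much lower level. It was read at 5.48, 5.19 and 7.16 FPKM in Vehicle lungs and at 4.04, 2.58 and 2.12 FPKM in AngII lungs. TRV023 lungs had 7.39, 6.69 and 6.82 FPKM and Losartan lungs 6.51, 6.87 and 4.30 FPKM, so the AngII libraries were again below all others. The log2 fold change against Vehicle was -0.91 (SE 0.23, 95% interval -1.43 to -0.38), with an adjusted p of 0.323 in edgeR and 0.0363 in DESeq2. DESeq2 called 1.45% of all genes in this comparison, and Timp3 and Adamts12 were the 2 members it called.

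Timp3 and Adamts12 were the members for which the 3 AngII libraries lay below the other 9, 2 of 47 members beside 3.22% of all genes. Against Vehicle alone, AngII was below without overlap in Timp3, Adamts12 and Adam9, 3 of 44 members beside 16.5% of all genes. The share of members was thus near or below that of all genes on the FPKM scale. Adam8 (a leukocyte Adam first described in macrophages) was read at 21.9, 9.27 and 12.02 FPKM in AngII lungs and 26.0, 17.3 and 45.0 FPKM in Vehicle lungs, which overlapped, and its log2 fold change was -0.92 (SE 0.38, adjusted p 0.403 in edgeR). Without Veh_963 the log2 fold change of Adam8 was -0.47.

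**Figure D3:**
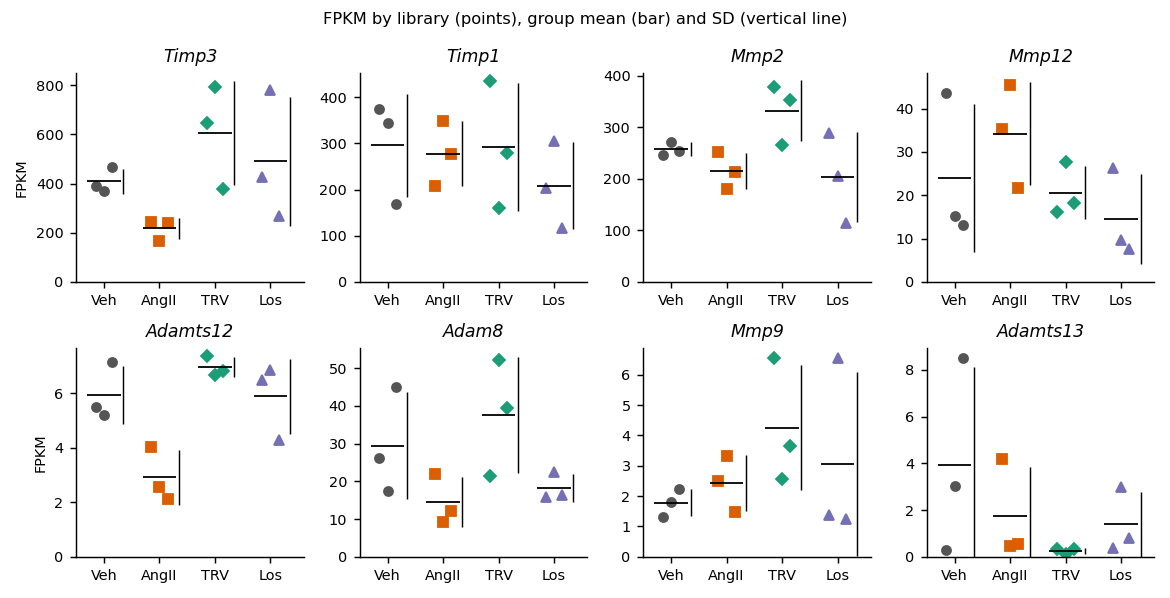
FPKM per library for Timp3, Timp1, Mmp2, Mmp12, Adamts12, Adam8, Mmp9 and Adamts13, with group means as horizontal bars, SD as vertical lines and n = 3 per group on axes that start at 0. The AngII points of Timp3 and Adamts12 lie below all others, 1 losartan animal is high for Mmp9, and the Vehicle mean of Adamts13 rests on 2 of the 3 animals.

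Several other values differed between AngII and Vehicle lungs. The summed CPM of 10 fibroblast markers ranged from 6639 to 8176 in AngII lungs and from 8881 to 9747 in Vehicle lungs, without overlap, and 1 of the 10 was lower at unadjusted p under 0.05. This was not particular to AngII, as the sum ranged from 6883 to 8970 CPM in TRV023 lungs and from 5433 to 8911 in Losartan lungs. The median log2 fold change of these markers against Vehicle was -0.17 for AngII, -0.22 for TRV023 and -0.27 for Losartan. The airway ciliated and club cell markers summed to 3158 to 6513 CPM in AngII lungs and 6072 to 14393 in Vehicle lungs, and 6 of the 6 tested were lower at unadjusted p under 0.05. Their part in the values of Timp3, Adamts12 and Adam8 was not tested, and in bulk lung fewer cells of a type and less RNA per cell cannot be told apart. Log2 fold changes of AngII were also lower for longer genes (Spearman rho = -0.25 across genes, which are not replicates), and members were longer (median 2966 bases) than all genes tested (2006 bases). With the length trend removed, the members' median was -0.13, 11 of 15 Adamts genes lay below 0, and Timp3 and Adamts12 were at -0.79 and -0.72.

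Among the other gelatinases, membrane-type proteases and inhibitors, no difference between AngII and Vehicle had an interval that left out 0. The sparse inhibitor Timp4 had the largest of these, a log2 fold change of -1.47 (interval -3.45 to 0.51), the membrane-type Mmp16 was at -0.61 (interval -1.40 to 0.18) and Mmp9 at 0.58 (interval -0.27 to 1.44). Mmp2 was read at 251, 181 and 214 FPKM in AngII lungs against 246, 272 and 255 in Vehicle lungs, a log2 fold change of -0.13 with a 95% interval of -0.45 to 0.18. Timp1 had 208, 349 and 276 FPKM in AngII lungs and 375, 345 and 169 in Vehicle lungs, a log2 fold change of 0.055 with an interval of -0.64 to 0.76. These groups overlapped for both genes. Timp2 differed by 0.12 (interval -0.17 to 0.41) and Mmp14 by -0.13 (interval -0.46 to 0.20). The sheddases Adam10 and Adam17, which release Notch, TNF and EGF receptor ligands, had log2 fold changes of -0.34 (interval -1.10 to 0.41) and -0.27 (interval -0.78 to 0.24).

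TRV023 against Vehicle asked the same of the biased agonist. At unadjusted p under 0.05, 2 of 46 members were higher and 4 lower, where 2.61% of all genes were higher and 2.96% lower. The median log2 fold change of the members was 0.056, against -0.0016 over all genes. The higher genes were Mmp9 and Mmp3, and the lower ones Adamts13, Adamts17, Adamts19 and Adamts6. Mmp3 passed the filter on low counts only through its TRV023 libraries, and Adamts19 through its Vehicle libraries, so each could be counted in 1 direction only, and these counts support nothing about the members together.

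Mmp9, the gelatinase B of neutrophils and macrophages, was read at 6.55, 2.57 and 3.66 FPKM in TRV023 lungs and at 1.33, 1.79 and 2.22 FPKM in Vehicle lungs. All TRV023 libraries were above all Vehicle libraries, with a log2 fold change of 1.27 (SE 0.39, 95% interval 0.37 to 2.16) and an adjusted p of 0.699 in edgeR. Without Trv_917 the difference was 0.80. AngII lungs had 2.48, 3.32 and 1.48 FPKM, and in the Losartan group 1 animal had 6.54 FPKM beside 1.37 and 1.24 in the others.

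Mmp3 was scarce, with 31, 11 and 28 counts in TRV023 lungs and 4, 9 and 2 in Vehicle lungs. These groups did not overlap, and the log2 fold change was 2.35 (SE 0.74, adjusted p 0.699 in edgeR). It was tested in no other comparison with Vehicle. The sum of neutrophil markers, which leans on Lcn2, did not separate these groups. It was 917.9 to 1577 CPM in TRV023 lungs and 481 to 2440 CPM in Vehicle lungs. Gene by gene, 4 of the 11 tested were higher and 0 lower at unadjusted p under 0.05, and their median log2 fold change was 0.79. Ltf, a defining granule gene, was neither in that sum nor among the 11 tested, as it was at 0 or not listed in 7 of 12 libraries. Macrophage markers summed to 2252 to 2627 CPM in TRV023 lungs and 1802 to 2142 CPM in Vehicle lungs, without overlap, and 2 of the 9 tested were higher at that level. The part of both marker lists in the Mmp9 value was not tested.

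Adamts13, made mainly by hepatic stellate cells and endothelium, had the largest fold change of the 46 members tested in this comparison and uneven replicates. It was read at 0.324, 0.109 and 0.336 FPKM in TRV023 lungs and at 0.289, 3.02 and 8.498 FPKM in Vehicle lungs, which overlapped. The log2 fold change was -3.94 (SE 1.06, adjusted p 0.595 in edgeR), and -2.68 to -4.48 when 1 library was left out. Adamts17 (log2 -0.91, SE 0.32), Adamts19 (-1.61, SE 0.65, under 1 FPKM in every library) and Adamts6 (-0.63, SE 0.26) were lower in TRV023 libraries than in all Vehicle libraries on the FPKM scale. The share of all genes without overlap between these groups is not given here. The lack of overlap in these genes, Mmp9 and Mmp3 therefore says nothing about the members together.

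Mmp2, Timp3, Mmp14 and Timp2 had positive differences in TRV023 lungs, each with an interval that included 0. Mmp2 was read at 378, 266 and 353 FPKM, against 246, 272 and 255 FPKM in Vehicle lungs, a log2 fold change of 0.37 with an interval of -0.032 to 0.77. Timp3 differed from Vehicle by 0.56 (interval -0.031 to 1.15), Mmp14 by 0.18 (interval -0.16 to 0.52) and Timp2 by 0.18 (interval -0.16 to 0.53). Timp1 was read at 436, 159 and 280 FPKM, and its difference of -0.0074 had an interval of -0.93 to 0.92. Adamts1, an inducible protease of versican, had 79.9, 55.2 and 61.2 FPKM beside 38.3, 36.4 and 71.9 in Vehicle lungs, and a difference of 0.42 with an interval of -0.24 to 1.08.

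Losartan against Vehicle gave the fewest differences. At unadjusted p under 0.05, 1 of 45 members was lower and 0 were higher, where 0.963% of all genes were lower and 0.686% higher. That member was Adamts7, a vascular metalloproteinase, at 3.23, 3.45 and 2.48 FPKM in Losartan lungs and 4.74, 3.92 and 5.21 FPKM in Vehicle lungs. The groups did not overlap, and its log2 fold change was -0.54 (SE 0.21, adjusted p 0.9999 in edgeR). Adamts7, Adamts6 and Adamts15 were the 3 of 45 members below Vehicle without overlap, beside 3.62% of all genes.

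The members' median in this comparison was -0.15, against 0.0063 over all genes. It was -0.010 without Los_965, -0.046 without Veh_924 and -0.084 without Veh_923. Mmp2 had 289, 205 and 115 FPKM and Mmp14 110, 97.3 and 56.2 FPKM in Losartan lungs, and in both genes the lowest value was that of Los_965. Mmp12 was read at 26.3, 9.55 and 7.54 FPKM and overlapped Vehicle (43.6, 15.2 and 13.1 FPKM). Mmp8 was 1.37, 12.7 and 1.43 FPKM in Losartan lungs, so that 1 animal set its mean, and the log2 difference of 0.96 from Vehicle had an interval of -1.09 to 3.02.

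**Figure D4:**
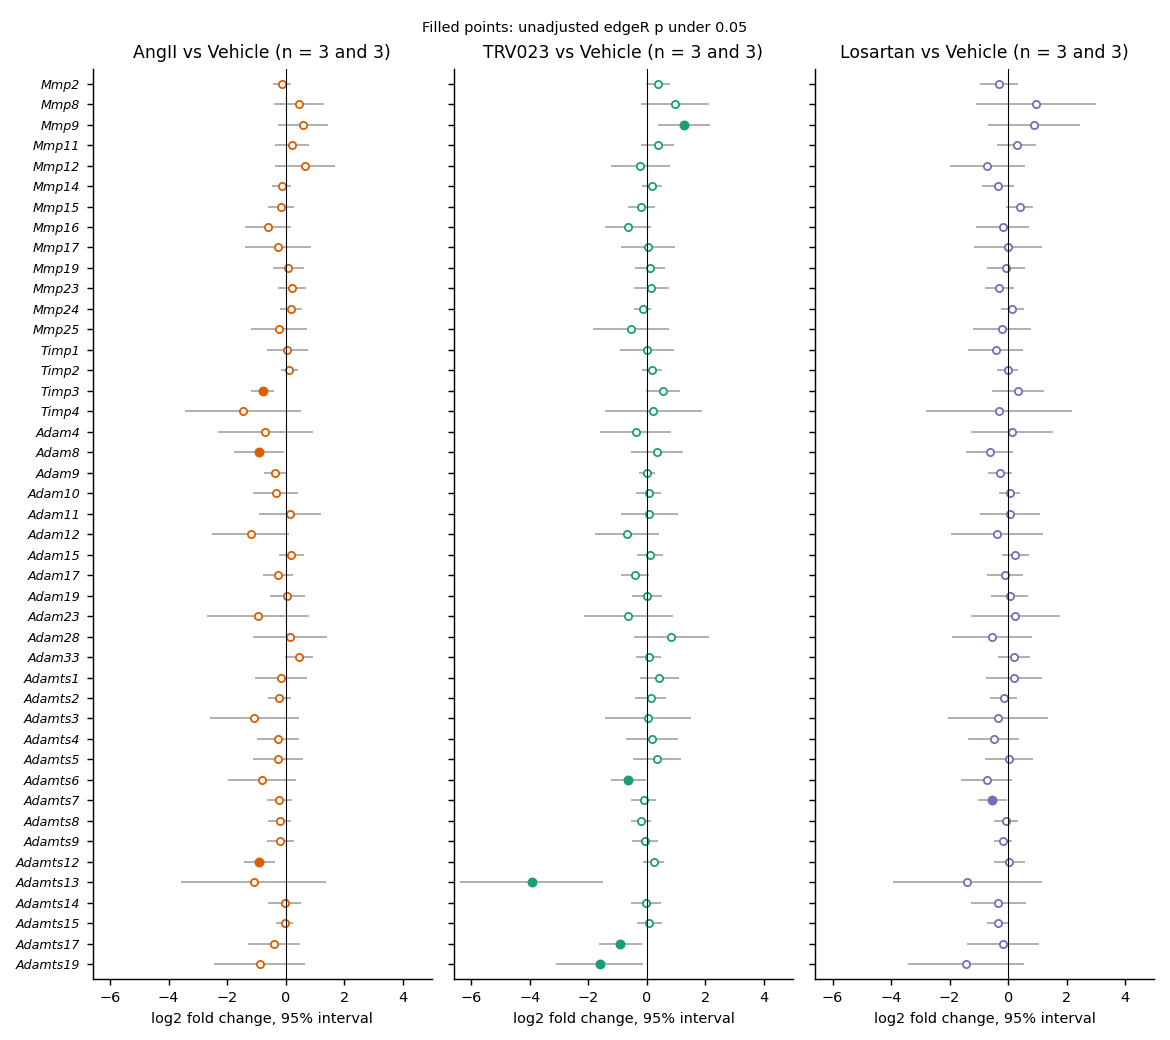
Log2 fold changes against Vehicle with 95% intervals from edgeR for the 44 members tested in all 3 comparisons, grouped by family, with n = 3 animals per group. Filled points have an unadjusted p under 0.05, and Adamts13 and Timp4 have the widest intervals in all 3 panels.

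The drugs were then compared with each other, each at its own dose. Because all 3 comparisons with Vehicle share the same 3 control lungs, the fold changes of these direct contrasts, fitted on the 12 libraries together, do not rest on them. Between AngII and TRV023, 3 of 47 members were lower in AngII and 1 higher at unadjusted p under 0.05, where 5.43% of all genes were lower and 5.43% higher. Timp3 was lower in AngII by a log2 difference of -1.34 (SE 0.37, 95% interval -2.13 to -0.54) with an adjusted p of 0.281 in edgeR and 0.0212 in DESeq2. For Adamts12 the difference was -1.13 (SE 0.23, interval -1.64 to -0.62) with an adjusted p of 0.262 in edgeR and 0.00385 in DESeq2, which called 1.46% of all genes.

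Adam8 was lower in AngII than in TRV023 by -1.26 (SE 0.39, adjusted p 0.301 in edgeR), with 21.5, 52.1 and 39.3 FPKM in TRV023 lungs. Adamts13 was higher in AngII by 2.84 (SE 1.20), and by 1.15 to 3.28 with 1 library left out. Airway ciliated and club cell markers summed to 3158 to 6513 CPM in AngII lungs and 8323 to 14867 CPM in TRV023 lungs, without overlap, with 6 of the 6 tested lower in AngII at unadjusted p under 0.05 (median log2 difference -1.34). Their part in these differences was not tested. Of the Adamts genes, 12 of 15 lay below 0 in this comparison, beside 51.0% of all genes, and 7 of 15 with the gene length trend removed. On the FPKM scale AngII lay below TRV023 without overlap in 9 of 47 members, beside 14.6% of all genes. The 9 were Timp3, Timp4, Mmp2, Mmp11, Mmp14, Adam9, Adamts3, Adamts5 and Adamts12. Mmp2 differed by -0.50 with an interval of -1.06 to 0.060, and Mmp14 by -0.30 with an interval of -0.77 to 0.16.

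Between AngII and Losartan, 3 of 47 members were lower in AngII and 1 higher at unadjusted p under 0.05, where 4.49% of all genes were lower and 4.69% higher. Adamts12 differed by -0.94 (SE 0.23, adjusted p 0.328 in edgeR and 0.0382 in DESeq2, which called 0.677% of all genes). Timp3 differed by -1.11 (SE 0.36, adjusted p 0.445 in edgeR), and by -0.51 without Los_964, the animal with 780 FPKM. Mmp15, a membrane-type metalloproteinase, was at 27.1, 16.1 and 23.5 FPKM in AngII lungs and 28.5, 37.7 and 35.7 in Losartan lungs, a difference of -0.54 (SE 0.22). Mmp12 was the higher one, at 35.4, 45.4 and 21.8 FPKM in AngII lungs beside 26.3, 9.55 and 7.54 in Losartan lungs, and it differed by 1.37 (SE 0.50, adjusted p 0.475 in edgeR).

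Macrophage markers summed to 1899 to 2522 CPM in AngII lungs and 1127 to 2250 CPM in Losartan lungs, and their part in the Mmp12 difference was not tested. Mmp12 and this sum had a Pearson r of 0.50 over the 12 libraries, and 0.20 without Los_965 and Trv_930.

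Between TRV023 and Losartan, 6 of 47 members were higher in TRV023 and 1 lower at unadjusted p under 0.05, where 2.29% of all genes were higher and 2.27% lower. Those with the smallest p were Mmp3 (log2 difference 3.31, SE 0.96), Mmp2 (0.68, SE 0.26), Mmp15 (-0.58, SE 0.22), Adam8 (0.98, SE 0.39) and Adam28 (1.40, SE 0.56), and each had an adjusted p of 0.998 in edgeR. Mmp3 had 4, 3 and 0 counts in Losartan lungs and enough counts for the test mainly through the TRV023 group, where it was high, so its place in this order carries no weight. Without Los_965, the difference in Mmp2 was 0.40, and 2 members in place of 7 reached that level. Adam28, an Adam of lymphocytes, ranged from 0.249 to 1.83 FPKM over the 12 libraries.

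The balance of Mmp2 to Timp1 was examined as the ratio of their FPKM in each lung. Vehicle lungs had ratios of 0.656, 0.789 and 1.51, AngII lungs 1.21, 0.517 and 0.773, TRV023 lungs 0.866, 1.67 and 1.26, and Losartan lungs 1.43, 0.671 and 0.980. All groups overlapped. On the log2 scale the drug means differed from Vehicle by -0.23 for AngII, 0.41 for TRV023 and 0.087 for Losartan, with exact two-sided permutation p values of 0.60, 0.40 and 0.90 (adjusted p 0.90 for each), where 3 against 3 animals cannot go below 0.1. The pooled SD within groups was 0.57, and most of it came from Timp1, which ranged from 117 to 436 FPKM.

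Cell type markers were set beside 9 member genes over the 12 libraries, each relation tested by 100000 permutations. Mmp2 and the fibroblast sum, both measured in the same libraries, had a Pearson r of 0.78 (permutation p 0.0017, adjusted over 9 relations 0.0151) and a Spearman rho of 0.71 (permutation p 0.013, adjusted 0.116). Without Los_965 and Los_964, the libraries farthest from the median sum, r was lower at 0.58 (permutation p 0.08). Leaving them out also narrows the range of the sum, so this value cannot decide how far the relation rests on those animals. With group means removed r was 0.87. No other relation passed, with r of 0.31 for Mmp8, 0.28 for Mmp9, -0.015 for Mmp25 and -0.27 for Adam8 against neutrophil markers, 0.43 for Mmp19 against macrophage markers, and 0.47 for Adamts2 and 0.10 for Timp3 against fibroblast markers (adjusted permutation p from 0.364 to 0.963). The neutrophil sum leans on Lcn2, so it cannot decide how Mmp8, Mmp9, Mmp25 and Adam8 follow neutrophils.

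**Figure D5:**
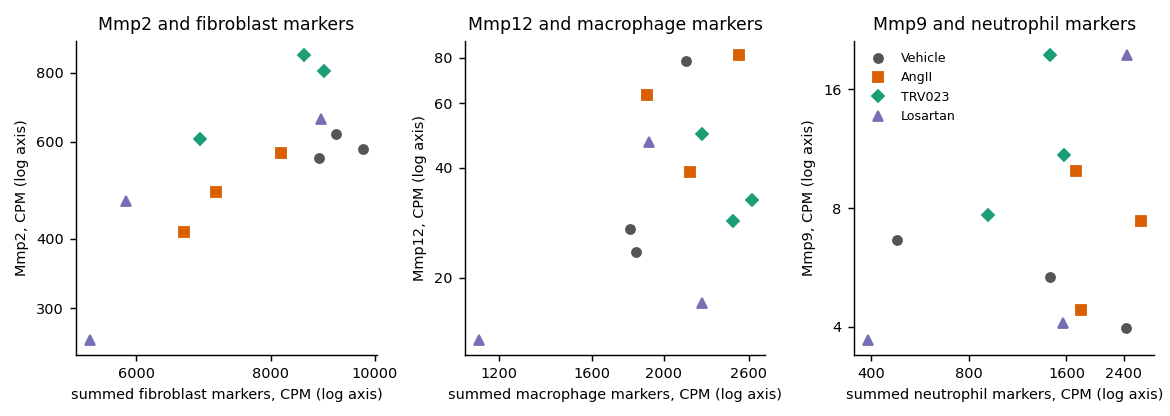
CPM of Mmp2, Mmp12 and Mmp9 in each of the 12 libraries against the summed CPM of fibroblast, macrophage and neutrophil markers, on log axes with 1 symbol per group. Mmp2 and the fibroblast sum (r = 0.78, and 0.58 without Los_965 and Los_964) have 1 losartan animal at the lowest point of both, whereas Mmp9 shows no clear order along the neutrophil sum, which leans on Lcn2 (r = 0.28).

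Genes around these families were read from 3 lists, whose counts at unadjusted p under 0.05 stand beside the shares of all genes given above for each comparison with Vehicle (5.39% lower and 6.54% higher for AngII, 2.96% and 2.61% for TRV023, 0.963% and 0.686% for Losartan). Of 27 regulators outside the naming rule (activating convertases, plasminogen activators, Adamts-like proteins and others), 22 were tested against Vehicle, and at unadjusted p under 0.05 there were 0 in AngII, 2 lower in TRV023 and 0 in Losartan. The 2 were Adamtsl3 (log2 -0.56, SE 0.17) and Reck (-0.44, SE 0.18), a membrane-anchored inhibitor of metalloproteinases. Of 25 matrix substrates, 4 of the 23 tested were lower in AngII (Fbn1, Lamc1, Thbs1 and Col4a2), 1 was higher and 2 lower of 22 in TRV023, and 1 of 23 was lower in Losartan (Vcan, log2 -0.99, SE 0.31). Of 25 shed membrane proteins, 1 of the 24 tested was higher and 3 lower in AngII, 2 higher and 1 lower in TRV023, and 1 lower in Losartan. In AngII lungs the lower ones were the EGF receptor ligands Ereg (log2 -2.85, SE 0.85) and Areg (-1.03, SE 0.36) and the adhesion molecule Vcam1 (-0.37, SE 0.12), and the list's median was -0.13. Trem2, a receptor of macrophages released by Adam10 and Adam17, was higher in both peptide groups, which share their controls, with log2 fold changes of 1.39 (SE 0.32) for AngII and 1.06 (SE 0.24) for TRV023. Of the other marker lists, 0 of 8 smooth muscle genes, 1 of 8 endothelial genes (lower), 0 of 9 alveolar epithelial genes, 0 of 6 mesothelial genes, 3 of 9 macrophage genes (higher) and 1 of 11 neutrophil genes (higher) reached unadjusted p under 0.05 for AngII against Vehicle. None of the genes on any of these lists passed an adjusted p of 0.05 in edgeR.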

How the data were processed

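RNA from 12 rat lungs was sequenced (4 groups of 3). The authors deposited 3 tables, each setting 1 drug against Vehicle, with raw read counts per gene, FPKM, and counts scaled by size factors, a signal not used here. Columns with the authors' fold changes and p-values and the lists of called genes were not used. The sources used here name no aligner, counter, genome build or strand setting. Genes enter a table only with a read in the first 2 libraries of its drug. Deposited FPKM used another length than the listed one for 8 members.

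Counts were tested with edgeR 4.0.16 (TMM, filterByExpr, quasi-likelihood test, Benjamini-Hochberg) in R 4.3.3. Each drug was fitted with Vehicle alone, and drugs with each other in a fit of all 12 libraries. Standard errors and 95% intervals are on the log2 scale. Alternatives were DESeq2 1.42.0, limma 3.58.1 on log2(FPKM + 1) and log2(FPKM + 0.1) for genes with a mean of at least 1 FPKM, other scalings and filters, and each library left out. Another 2 were added after the data had been seen: removal of the gene length trend (lowess span 0.3) and edgeR's bias-adjusted deviances. The fits were tested on simulated data. Permutation tests used scipy 1.17.1 and Python 3.11.15. Named genes are up to 10 members with the smallest p under 0.05 per comparison with Vehicle, up to 5 per comparison of drugs, the 20 with the highest mean FPKM, and 13 enzymes and inhibitors of known function; Adam9, Mmp24, Mmp25, members of the chromosome 8 row and genes of the lists were named beside a count. Members and lists were chosen with earlier results of these data known. The labels do not say more of replicates than that each is 1 animal.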

Additional observations from a re-analysis of the deposited data

How the results depend on the processing

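No member passed an adjusted p of 0.05 in any of the edgeR and limma alternatives run (other scalings and filters, joint fits, each library left out). DESeq2 called 2 members for AngII against Vehicle, 2 for AngII against TRV023 and 1 for AngII against Losartan. Over the 23 single-gene contrasts named by p, all 365 alternative values had the sign reported above, and 5 passed an adjusted p of 0.05, all in DESeq2. These contrasts were picked for a small p in the same counts that the alternatives fit again. The agreement in sign was therefore close to fixed by that choice and is no independent support.

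Numbers of members at unadjusted p under 0.05 depended on single libraries. With 1 library left out they ran from 2 to 8 for AngII against Vehicle, 1 to 12 for TRV023 (12 without Veh_963), 0 to 5 for Losartan, 3 to 8 for AngII against TRV023, 2 to 8 for AngII against Losartan and 2 to 12 for TRV023 against Losartan. The animal number series sets Veh_963, Los_964 and Los_965 apart from all other libraries, so it holds no AngII or TRV023 animal and is uneven between groups. With this series as a covariate the numbers were 6 for AngII and 3 for Losartan against Vehicle, 8 for AngII against TRV023 and 7 for AngII against Losartan. For TRV023 against Vehicle the number was 3 with at least 10 counts in every library, 3 in limma on log2(FPKM + 0.1) and 2 in a fit of all 4 groups. For Losartan it was 2 with library totals and 0 with the length trend removed. The cause was not tested.

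The members' median for AngII was -0.34 with library totals and -0.34 in limma on log2(FPKM + 0.1), where the all-gene median was -0.16 and -0.14, but -0.12 without Ang2_931 and -0.13 without Veh_963 or with the length trend removed. For Losartan it was -0.094 with no filter on low counts, -0.013 with the number series as a covariate, and -0.21 to -0.010 with 1 library left out. For TRV023 it ran from -0.036 to 0.11 with 1 library left out. The Mmp2 to Timp1 difference ran from -0.54 to 0.12 for AngII (0.12 without Veh_963, 0.069 without Ang2_931) and from -0.18 to 0.44 for Losartan (-0.16 without Veh_923, -0.025 without Veh_924, -0.18 without Los_925), so neither had a stable sign. No paired analysis was possible because each animal number occurs once. With 3 animals per group the intervals above are wide, and counts of at most 31 per library limit Mmp3, Mmp7, Mmp10, Mmp13 and Adamts19.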
